A study of Mus musculus with 4 samples.

Results

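The way intestine answers total body irradiation was compared between mice that carry the gene Tlr3 and mice that lack it, as the difference of 2 responses measured on 4 microRNA arrays. For every miRNA probe the log2 ratio of irradiated over non-treated intestine was taken within Tlr3+/+ and within Tlr3-/-, and the first was subtracted from the second. The comparison was confined to 100 of 1096 mouse miRNA probes, those whose raw intensity lay above 3 times the detection threshold on all 4 arrays. The threshold of an array is the mean of its blank spots plus 2 SD, and the limit of 3 times it was a raw intensity of 77.3 to 87.6. The direction of a response did not enter the choice, but a miRNA that was dim before irradiation and rose, or that fell to the limit, was left out.

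Small intestine was taken from Tlr3+/+ and Tlr3-/- mice at 0 hr, non-treated, and at 6 hr after 10 Gy of gamma-rays given to the whole body. Each array held labelled total RNA pooled from 3 mice, with 1 array per group, so no difference below has a replicate check or a p-value. No label states the slides. If the numbers in the deposited array names stand for slides, the pair of non-treated arrays was on 1 slide while each irradiated array had its own, and slide could not be told apart from irradiation, nor from genotype at 6 hr. No non-treated mice were sampled at 6 hr, and the array carries no Tlr3 probe, so time and irradiation cannot be told apart and the genotypes could not be checked. The labels give neither the strain nor the age of the mice, nor how the Tlr3 allele was made.

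TLR3 is an endosomal receptor of the innate immune system that recognises double-stranded RNA and signals through the adaptor TRIF to NF-kB and interferon regulatory factors. In the intestine, high doses of radiation kill proliferating crypt cells, and RNA from damaged cells is among the ligands known for this receptor. MicroRNAs are short RNAs that guide Argonaute proteins to messenger RNAs, mostly by pairing of the seed, bases 2 to 8. Each hairpin precursor yields a duplex of which the less abundant arm was formerly marked with an asterisk, and the array uses those names, given here without the species prefix.

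Several of the miRNAs that set the 2 genotypes apart are rich in G, and their mature sequences are shown for that reason, 5′ to 3′ from RefSeq (build GRCm38.p6), with the seed in capitals. Older array names were matched to current names, and 81 of the 100 miRNAs had a sequence. The first 6 were higher after irradiation in both genotypes and by less in Tlr3-/-.
miR-92b* (miR-92b-5p): aGGGACGGgacguggugcaguguu
miR-326* (miR-326-5p): gGGGGCAGggccuuugugaaggcg
miR-762: gGGGCUGGggccgggacagagc
miR-211* (miR-211-3p): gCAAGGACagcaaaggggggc
miR-2861: gGGGCCUGgcggcgggcgg
miR-2137: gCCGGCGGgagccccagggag
The next 4 rose at least 1.5-fold in both genotypes.
miR-5126: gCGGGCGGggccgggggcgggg
miR-711: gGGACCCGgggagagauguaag
miR-5128: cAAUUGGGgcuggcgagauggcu
miR-3473b: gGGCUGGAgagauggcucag
The last 4 were lower after irradiation in Tlr3+/+ and higher in Tlr3-/- at the scaling used here.
miR-21 (miR-21a-5p): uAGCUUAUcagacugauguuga
miR-203 (miR-203-3p): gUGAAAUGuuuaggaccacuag
miR-125a-3p: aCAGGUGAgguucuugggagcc
miR-130a (miR-130a-3p): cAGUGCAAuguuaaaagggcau
No seed was common to any pair of these miRNAs, but longer stretches were. miR-92b* shares the 9 bases agggacggg with miR-149*, and miR-5128 shares gagauggcu with miR-3473b, so RNAs of such pairs may bind each other's probes.

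Values below are normalised intensities, meaning the raw intensity minus the mean of the blank spots, with every array scaled to the same median over the 100 miRNAs. Ratios and differences are on the log2 scale unless called fold. With 1 spot per miRNA, the only repeats are 8 spots of each of 2 spike controls, which had a pooled SD of 0.11 within arrays. A difference built from 4 single spots as bright as the spikes would carry an SD of 0.21 from that source. This SD holds no spread of animals, pools or arrays. That SD rests largely on the spots of 1 spike on the irradiated Tlr3+/+ array (SD 0.24, against 0.03 to 0.10 elsewhere), and without them it was 0.13, an alternative added after seeing the data. The spikes themselves had differences of -0.16 and -0.16, and 51 of the 100 miRNAs had a difference smaller than 0.21 in size and 39 one smaller than 0.13. The spikes had mean intensities of 3035 to 4246 after blank subtraction. The median raw intensity of the 100 was 244 to 270, and the spot error of such dimmer miRNAs was not measured.

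Responses were sorted by size limits. A miRNA responded in a genotype when its ratio was at or beyond 1.5-fold (0.58). Shared responses passed this limit in both genotypes in 1 direction and differed by less than 1.5-fold. Damped responses had the same direction in both genotypes, lay beyond 1.2-fold in each, and were smaller in Tlr3-/- by at least 1.5-fold. Responses of 1 genotype passed 1.5-fold there while the other genotype lay within 1.2-fold of 0 or on the opposite side. A miRNA was called crossing when neither ratio passed 1.5-fold but their difference did, and partial when 1 ratio passed and none of these descriptions held.

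Most bright miRNAs lay near 0, and most of those at least 1.5-fold higher in Tlr3+/+ had a smaller rise in Tlr3-/-. Choosing on a high Tlr3+/+ ratio favours that direction, and each group is 1 array. Of the 100 miRNAs, 10 were damped in Tlr3-/- and 5 were shared, against 4.89% damped and 7.33% shared among all 573 mouse miRNAs detected on the 4 arrays. A further 5 responded in Tlr3+/+ alone by these limits, against 11.9% of the 573, and 0 responded in Tlr3-/- alone, against 8.38%. None was larger in Tlr3-/- by the reverse of the damped rule, against 1.40%, 2 were crossing (5.76%), 2 were partial (5.58%), and 76 were unmoved (54.8%). Dim probes dominate the 573 and scatter more, with differences from -3.93 to 3.03, so the shares among the bright and among all probes do not compare like with like.

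**Figure D1:**
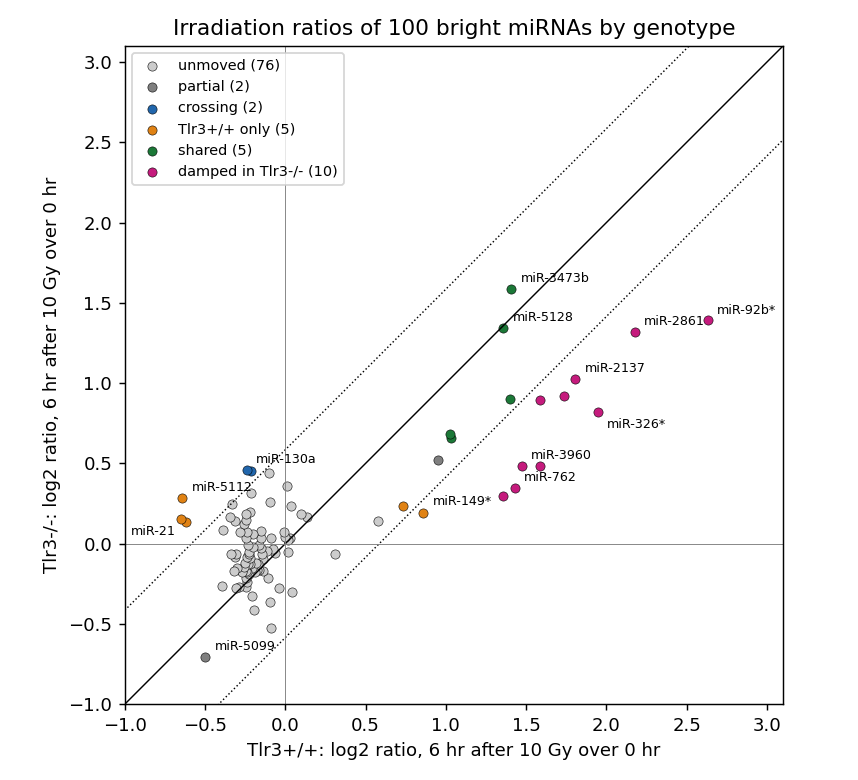
Each point is 1 of 100 bright miRNAs, placed by its log2 ratio of irradiated over non-treated intestine in Tlr3+/+ (horizontal) and Tlr3-/- (vertical). The solid line marks equal ratios and the dotted lines a 1.5-fold difference; 10 damped miRNAs lie below the lower dotted line, and miR-3473b and miR-5128 lie close to the solid line.

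Damped responses were led by miR-92b*, the passenger arm of a miRNA of the miR-25 family. With TLR3 it read 109 non-treated and 678 irradiated, and without TLR3 143 non-treated and 375 irradiated. Its rise was 6.20-fold with TLR3 and 2.63-fold without it, a difference of -1.24. The irradiated Tlr3+/+ array stood well above the other 3, and the irradiated Tlr3-/- array stood between it and the non-treated arrays. The hairpin lies at chr3:89227116-89227198 (GRCm38.p6) and within no other annotated gene.

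miR-326*, from a hairpin inside the gene of beta-arrestin 1 (Arrb1, chr7:99552269-99552363), read 221 at 0 hr and 852 at 6 hr with TLR3, the order of times kept below. In Tlr3-/- it had 321 and 567, which gave 3.86-fold against 1.77-fold and a difference of -1.13. miR-762, whose hairpin lies within Bcl7c (chr7:127708487-127708562), rose from 181 to 488 in Tlr3+/+. In Tlr3-/- it went from 210 to 267, which is 1.27-fold and short of the 1.5-fold limit, and its difference was -1.08. For both miRNAs the non-treated Tlr3-/- array was above the non-treated Tlr3+/+ array and the irradiated order was the reverse.

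miR-2861 and miR-3960 are encoded 11 bases apart on chromosome 2 (chr2:32712807-32712972) and are known in mouse from osteoblast differentiation. miR-2861 read 517 and 2338 in Tlr3+/+ and 625 and 1560 in Tlr3-/-, or 4.52-fold against 2.50-fold. miR-3960 read 673 and 1872 in Tlr3+/+ and 889 and 1243 in Tlr3-/-, or 2.78-fold against 1.40-fold. Their differences were -0.86 and -0.99, and their rises in Tlr3+/+ were unequal.

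The remaining damped miRNAs were miR-2137, miR-3102*, miR-3090*, miR-3077* and miR-211*. miR-2137 read 742.5 and 2598 in Tlr3+/+ and 910 and 1855 in Tlr3-/-, with a difference of -0.78. miR-3102* had a rise of 3.34-fold against 1.90-fold and miR-3090* one of 3.01-fold against 1.86-fold. miR-3077* was 3.01-fold higher with TLR3 and 1.40-fold higher without it. miR-211*, the passenger arm of a miRNA within the melanocyte gene Trpm1, was 2.56-fold and 1.23-fold higher, and the latter value lies just beyond the 1.2-fold limit. Both miR-3077* and miR-3090* started near the brightness limit, with raw intensities of 81.5 and 82.5 in non-treated Tlr3+/+ intestine.

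**Figure D2:**
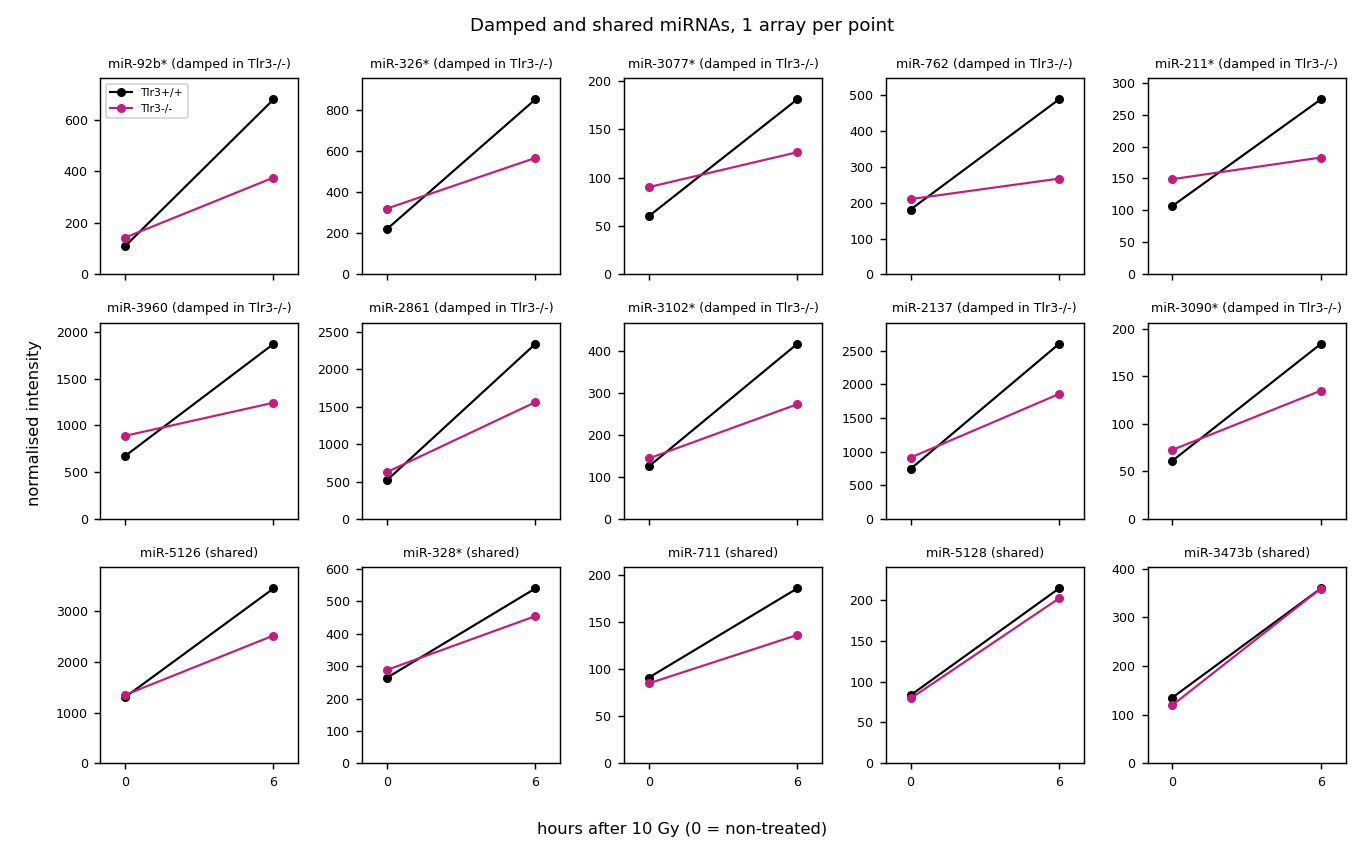
Normalised intensity (vertical, from 0) of the 10 damped and 5 shared miRNAs at 0 hr and 6 hr after 10 Gy (horizontal), with 1 array per point, black for Tlr3+/+ and pink for Tlr3-/-. In every damped panel the Tlr3-/- line starts above and ends below the Tlr3+/+ line, and for miR-5128 and miR-3473b the lines nearly coincide.

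The 10 damped miRNAs had a common layout across the arrays. In all 10 the Tlr3-/- array was above Tlr3+/+ at 0 hr and below it at 6 hr, as it was for miR-149*, against 17 of the 100 miRNAs and 21.3% of the 573. Selecting low differences favours this layout, since the difference equals the genotype gap at 6 hr minus the gap at 0 hr. Over these 11 miRNAs the gap at 0 hr was 0.05 to 0.58 and the gap at 6 hr -0.87 to -0.45. The non-treated arrays supplied a median of 35.6% of the difference, from 6.77% for miR-149* to 53.01% for miR-3077*. In the mirror image, Tlr3-/- lower at 0 hr and higher at 6 hr, stood 31 of the 100 miRNAs and 25.3% of the 573. Most of the damping of miR-762 (80.2%) and miR-92b* (69.0%) came from the irradiated arrays.

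The counts of smaller rises depend in part on how the miRNAs were selected. Of the 18 miRNAs at least 1.5-fold higher in Tlr3+/+ (19.4% of the 573), 17 rose less in Tlr3-/-, with median ratios of 1.42 and 0.75, and choosing on a high Tlr3+/+ ratio favours this direction. Of the 11 at least 1.5-fold higher in Tlr3-/- (17.3% of the 573), all 11 were among those 18 and 10 of them had risen more in Tlr3+/+, the medians being 1.59 for Tlr3+/+ and 0.92 for Tlr3-/-. The 11 lie within the 18 and come from the same 4 arrays, so they are no separate support. Among the 11, the ratio in Tlr3-/- amounted to 42.2% to 112% of the Tlr3+/+ ratio (median 60.6%), and miR-3473b alone had a share above that of an equal rise.

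Shared responses were those of miR-3473b, miR-5128, miR-5126, miR-711 and miR-328*. miR-3473b, from a hairpin within Ccdc162 (chr10:41670739-41670793), read 135 and 359 in Tlr3+/+ and 120 and 359 in Tlr3-/-. Its rise was 2.65-fold with TLR3 and 3.00-fold without it, the largest ratio of the 100 in Tlr3-/-. miR-5128, within Strbp (chr2:37688201-37688284), read 83.3 and 214 in Tlr3+/+ and 79.4 and 201 in Tlr3-/-, a rise of 2.56-fold and 2.54-fold. Their differences were 0.18 and -0.02, of which the first lies between 0.13 and 0.21, the SDs from the brighter spikes. The irradiated arrays of the genotypes nearly coincided for both.

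The other shared miRNAs leaned to the damped side. miR-5126, within Dner (chr1:84695839-84695915), was bright, at 1302 and 3436 in Tlr3+/+ and 1345 and 2512 in Tlr3-/-. Its difference of -0.50 stood just short of the 1.5-fold limit. miR-328* rose 2.04-fold and 1.57-fold, and miR-711, within the collagen gene Col7a1, 2.04-fold and 1.60-fold. At the scaling used, their differences of -0.38 and -0.35 were larger in size than the SD of 0.21 from the brighter spikes, without reaching 1.5-fold. Spot error was not measured for miRNAs this dim. Under the 9 other scalings both differences stayed below 0 but came as near it as -0.15 and -0.12. The partial miRNA miR-5109 was similar, at 1.94-fold and 1.44-fold, whereas the other partial one, miR-5099, fell by 0.50 in Tlr3+/+ and 0.71 in Tlr3-/- and was the single miRNA past 1.5-fold lower in Tlr3-/- (6.63% of the 573).

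Responses of Tlr3+/+ alone went in both directions. miR-149*, the passenger arm of a hairpin within the glypican gene Gpc1 and known in human melanoma as a p53-responsive miRNA, read 358 and 650 in Tlr3+/+. In Tlr3-/- it read 369 and 423, so the non-treated arrays nearly coincided and the irradiated ones parted, with a difference of -0.67.
miR-149* (miR-149-3p): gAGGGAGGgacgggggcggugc
miR-494, of the imprinted Dlk1-Dio3 locus, read 141 and 235 in Tlr3+/+ and 113 and 134 in Tlr3-/-. Its difference of -0.50 was under 1.5-fold, although its Tlr3+/+ ratio passed the limit and its Tlr3-/- ratio of 0.24 did not.

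The 3 others fell in Tlr3+/+ and had ratios of 0.14 to 0.28 in Tlr3-/-, and they were all the miRNAs at least 1.5-fold lower in Tlr3+/+ (8.55% of the 573). miR-21, a miRNA induced in inflammation and growth and encoded in the 3′ part of the Vmp1 locus (chr11:86584067-86584158), read 1416 and 903 in Tlr3+/+. In Tlr3-/- it read 1152 and 1282, so its ratio was -0.65 with TLR3 and 0.15 without it, a difference of 0.80. The irradiated Tlr3+/+ array was the lowest of the 4 and the non-treated Tlr3+/+ array the highest.

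miR-203 (chr12:112130880-112130955), which promotes differentiation in stratified epithelium, read 176 and 115 in Tlr3+/+ and 151 and 166 in Tlr3-/-. Its difference of 0.75 came mostly from the irradiated arrays (70.5%). miR-5112 had the highest positive difference of the 100, 0.92, with 118 and 75.8 in Tlr3+/+ and 66.2 and 80.5 in Tlr3-/-. In contrast to miR-21 and miR-203, 90.6% of it came from the non-treated arrays, where Tlr3+/+ stood above the 3 other arrays. The crossing miRNAs miR-130a and miR-125a-3p were likewise lower in Tlr3-/- than in Tlr3+/+ at 0 hr. miR-130a read 93.5 and 79.1 in Tlr3+/+ and 70.6 and 97.1 in Tlr3-/-, with a difference of 0.70. miR-125a-3p read 83.1 and 71.8 in Tlr3+/+ and 60.6 and 82.9 in Tlr3-/-, with a difference of 0.66. Under other scalings the Tlr3-/- ratio reached -0.24 for miR-21 and -0.07 for miR-203, so their rise there is not settled, while those of miR-5112, miR-130a and miR-125a-3p stayed above 0.

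**Figure D3:**
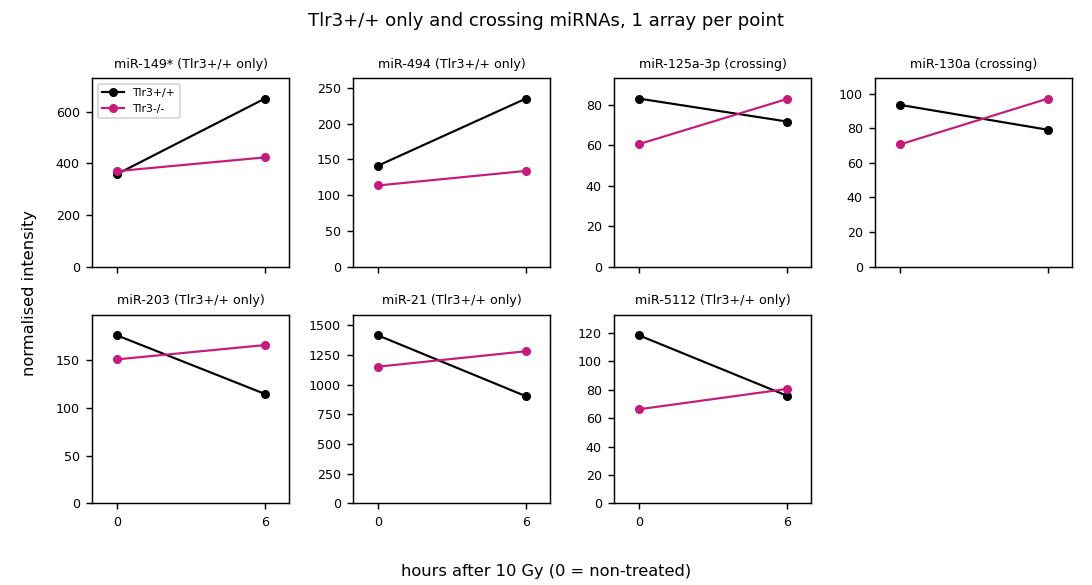
Normalised intensity (vertical, from 0) at 0 hr and 6 hr after 10 Gy (horizontal) of the 5 miRNAs that responded in Tlr3+/+ alone and the 2 crossing miRNAs, with 1 array per point, black for Tlr3+/+ and pink for Tlr3-/-. For miR-21 and miR-203 the lines cross, and for miR-149* they start together and part at 6 hr.

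Taken separately, fewer of the 100 miRNAs passed 1.5-fold between the genotypes at 0 hr than at 6 hr, with 1 array per group. At 0 hr, 1 of the 100 was at least 1.5-fold lower in Tlr3-/- (8.38% of the 573), which was miR-5112, and 0 were higher (5.41%). At 6 hr, 8 were at least 1.5-fold lower in Tlr3-/- (14.3%) and 0 were higher (8.90%). Each count is below the share among the 573, and those shares were also larger at 6 hr. The 8 were miR-92b*, miR-326*, miR-762, miR-3960, miR-3102*, miR-149*, miR-494 and miR-5109, all of which had risen in Tlr3+/+. The irradiated Tlr3+/+ array enters both that rise and the gap at 6 hr, so selecting low gaps favours it.

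By size of the difference alone, 11 miRNAs were at least 1.5-fold lower in Tlr3-/- (15.5% of the 573) and 5 at least 1.5-fold higher (14.0%). Both counts are below the shares among all detected probes and by themselves single out nothing. All 11 low differences belonged to miRNAs that rose after irradiation in Tlr3+/+. A Tlr3+/+ ratio above 0 was found in 28 of the 100 and 49.6% of the 573. All 5 high differences belonged to miRNAs with ratios below 0 in Tlr3+/+ and above 0 in Tlr3-/-. Ratios of opposite sign, in either direction, were found in 28 of the 100 and 194 of the 573. Selecting on the difference favours both patterns, since the Tlr3+/+ ratio is subtracted in it. Under 9 other ways of correcting and scaling the arrays, all 16 kept the sign of their difference. The limit of 1.5-fold was passed in all 9 by miR-92b*, miR-326*, miR-3077*, miR-762, miR-211*, miR-3960, miR-21 and miR-5112. It was passed in 8 by miR-2137, miR-3102* and miR-203, in 7 by miR-2861 and miR-130a, and in 5 by miR-3090*, miR-149* and miR-125a-3p. Just under the limit as reported, miR-141 (0.58) and let-7c (0.55) passed it in 6 of 9, miR-30a (0.53) in 4 and miR-15b (0.51) in 3. The class was less steady: miR-211* stayed damped in 3 of 9, and miR-203, miR-494 and miR-125a-3p stayed in theirs in 4 of 9. miR-5112 and miR-3090* did so in 5, and miR-130a, miR-149*, miR-328* and miR-711 in 6. The remaining damped and shared miRNAs and miR-21 kept their class in 7 or more, with miR-5128 and miR-3473b shared in 9 of 9.

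Base composition differed between the raised miRNAs and the other bright ones. The 12 matched miRNAs at least 1.5-fold higher in Tlr3+/+ had a median of 68.8% G and C, against 43.5% for the 69 other matched miRNAs. A run of 3 G (GGG, read on the miRNA strand, searched for after the sequences had been seen) occurred in 12 of the 12 and in 7 of the 69, which is 10.1%. It occurs in 30.6% of the 1679 mature mouse miRNAs of the RefSeq table. The 6 matched damped miRNAs held 62.5% to 94.7% G and C and the 4 matched shared ones 60.9% to 100%, so the composition of the damped and shared miRNAs overlapped.

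Across the 81 matched miRNAs the share of G and C was correlated with the difference at r = -0.65 (Pearson) and rho = -0.40 (Spearman). These points share the same 4 arrays and 1 labelling chemistry, and they are not independent replicates. Without the 12 raised miRNAs r was -0.23 over 69, so most of the relation rested on the raised group. Brightness had little relation to the difference, with r of -0.08 over all 100. Composition and irradiation response moved together here, and the part of composition in the difference was not tested.

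**Figure D4:**
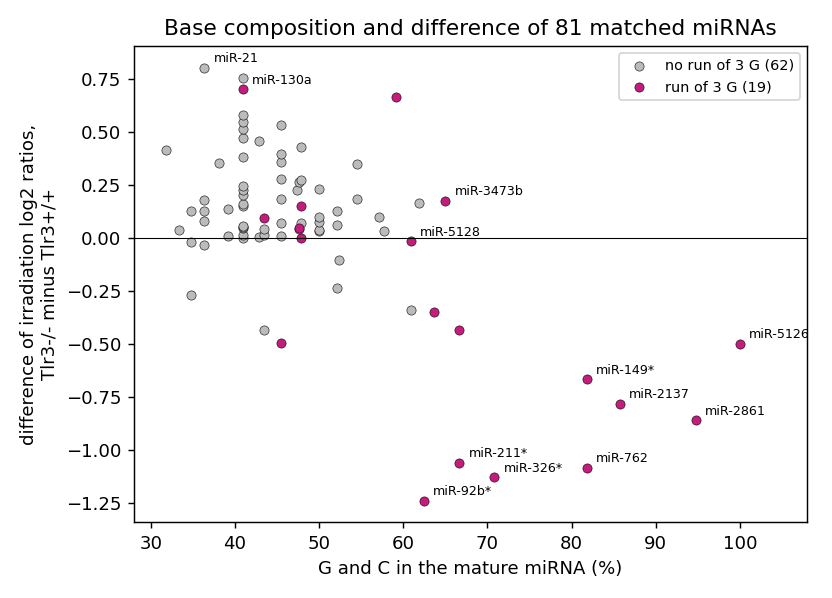
Percent G and C in the mature miRNA (horizontal) against the log2 difference of irradiation ratios, Tlr3-/- minus Tlr3+/+ (vertical), for 81 miRNAs with a RefSeq sequence, pink where the sequence holds GGG. The lowest differences belong to miRNAs above 60% G and C with GGG, while miR-5128 and miR-3473b, of 60.9% and 65.0%, lie near 0.

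Abundant miRNAs of the tissue were steady by comparison. At the scaling used, 72 of the 100 had a ratio below 0 in Tlr3+/+ (50.4% of the 573) and 50 in Tlr3-/- (44.2%). The 76 unmoved miRNAs had a median ratio of -0.21 in Tlr3+/+ and -0.06 in Tlr3-/-, and a median difference of 0.10. Other scalings moved the median difference of the 100 from 0.07 to between -0.07 and 0.30, so small differences have no settled sign. Lists are therefore also counted against 0.07. miR-194 and miR-192, the leading miRNAs of enterocytes, had differences of 0.07 and 0.04. miR-194 was at 6249 and 5783 in Tlr3+/+ and 6909 and 6706 in Tlr3-/-. The 5 brightest miRNAs of non-treated Tlr3+/+ intestine were miR-3968, miR-194, miR-215, miR-5100 and miR-690, and their differences ran from 0.07 to 0.36. Among unmoved miRNAs the lowest difference was that of miR-10a, a miRNA of the Hoxb cluster, at -0.44. It read 155 and 145 in Tlr3+/+ and 225 and 156 in Tlr3-/-, so the non-treated Tlr3-/- array stood above the 3 others.

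The epithelial list, with 11 of its 12 miRNAs among the 100, had a median difference of 0.18, with 9 of 11 above 0.07 and 11 of 11 above 0, against 69 of the 100 and 50.3% of the 573 above 0; miR-192, miR-194 and miR-200c turned below 0 under 1 of the 9 other scalings. Its members miR-200b, miR-200a and miR-429, of 1 cluster on chromosome 4 that restrains epithelial to mesenchymal transition, lay within 0.16 to 0.23. In the other cluster of that family, miR-141 had 0.58 and miR-200c 0.09, although their hairpins lie 336 bases apart. miR-141 read 374 and 298 in Tlr3+/+ and 253 and 301 in Tlr3-/-, so the non-treated arrays lay on either side of the irradiated ones. miR-215, which shares its seed with miR-192, had 0.35 and was highest on the irradiated Tlr3-/- array at 6450.

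Families with a common seed differed in how alike their members were. The miR-15/16 family, which restrains the cell cycle, had the highest list median among the bright miRNAs, 0.43 over 4 of its 6 listed miRNAs, with a range of 0.23 to 0.51.
miR-15a: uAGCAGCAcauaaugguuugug
miR-15b: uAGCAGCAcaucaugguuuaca
miR-16: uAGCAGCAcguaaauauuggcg
miR-497 (miR-497a-5p): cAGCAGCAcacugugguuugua
All 4 were below 0 in Tlr3+/+, from -0.39 to -0.25, against 72 of the 100 and 50.4% of the 573. In Tlr3-/-, 3 of 4 were above 0, against 50 of the 100 and 55.8% of the 573. The 4 differences stayed above 0 under all 9 other scalings. At the scaling used, 69 of the 100 and 50.3% of the 573 had a difference above 0. These 4 miRNAs come from the same 4 arrays and are not replicates. miR-15b read 150 and 118 in Tlr3+/+ and 137 and 154 in Tlr3-/-. At the scaling used none of the 4 reached a difference of 1.5-fold. Under the 9 others miR-15b reached it in 3, miR-15a in 2 and miR-16 in 1. The remaining listed miRNAs of the family, miR-322 and miR-195, were detected on all arrays but missed the brightness limit. miR-322 had a difference of 0.31, and miR-195 went the other way at -2.48, with raw intensities of 39.6 and 111 in Tlr3+/+ and 143 and 146 in Tlr3-/-, the non-treated Tlr3+/+ array being the low one.

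The let-7 family, a group of miRNAs that promote differentiation, had 8 of its 9 listed miRNAs among the 100 and a median of 0.20, and its members ranged from -0.03 for let-7a to 0.55 for let-7c. These 2 differ at 1 base and share the seed, and are shown because near-identical RNAs had unlike values.
let-7a: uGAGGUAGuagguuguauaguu
let-7c: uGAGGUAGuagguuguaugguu
let-7a read 944 and 860 in Tlr3+/+ and 1024 and 910 in Tlr3-/-, and let-7c 710 and 661 against 584 and 794. Whether each probe reads its own miRNA alone cannot be told from these files, so the values of single let-7 members are uncertain.

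Among miRNAs with the miR-17 seed, of clusters linked to proliferation, 6 were bright and had a median difference of 0.20 and a range of 0.01 to 0.46. Its highest members were miR-106b at 0.46 and miR-106a at 0.43, while miR-17 and miR-20a were at 0.07 and 0.01. miR-30 had 5 miRNAs with a median of 0.13, led by miR-30a at 0.53, and miR-29 had 3 with a median of 0.01. The smooth muscle and stromal miRNAs had a median of -0.01 over 4, with miR-143 at -0.22 and miR-145 at -0.07. The endothelial miR-126-3p had 0.01. Against the median of all 100, 7 of 9 bright miRNAs of the miR-17~92 list, 5 of 8 of let-7, 3 of 5 of miR-30, 1 of 3 of miR-29 and 0 of 4 of smooth muscle and stroma were above 0.07.

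**Figure D5:**
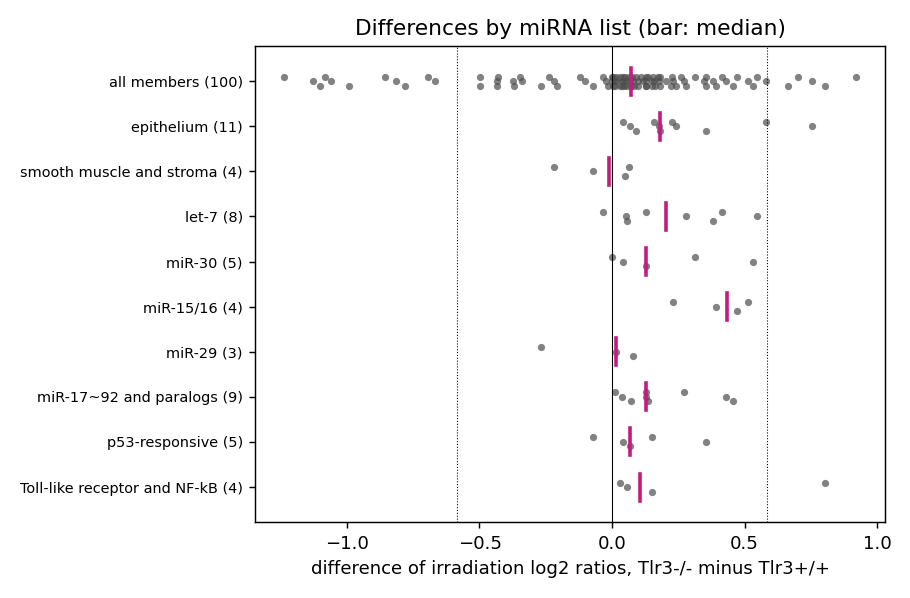
Log2 difference of irradiation ratios, Tlr3-/- minus Tlr3+/+ (horizontal), of single miRNAs (points) by list (rows), with the median as a bar and dotted lines at 1.5-fold. At the scaling used, all listed miRNAs except miR-21 and miR-203 lie between the dotted lines, with miR-141 and let-7c close to the upper one. The low differences in the top row belong to none of the lists.

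Signalling downstream of TLR3 could be followed only through miRNAs linked to it. Of the 9 miRNAs listed as linked to Toll-like receptor and NF-kB signalling, 4 were among the 100: miR-21 at 0.80, miR-223 at 0.15, let-7i at 0.06 and miR-125b-5p at 0.03. miR-146a, a feedback inhibitor induced by NF-kB, fell just under the brightness limit and had ratios of -0.43 in Tlr3+/+ and -0.47 in Tlr3-/-. miR-155 was dim, with raw intensities of 27.7 to 32.7. Of the miRNAs listed as p53-responsive, 7 were on the array and 5 were bright, with a median difference of 0.07. miR-149*, p53-responsive in human melanoma and at -0.67, was not on that list. miR-34a, a direct p53 target, had raw intensities from 34.2 in non-treated Tlr3+/+ to 45.2 in irradiated Tlr3-/- intestine and was too dim to be included. Its ratios, from signals close to the blanks, were -0.03 in Tlr3+/+ and 0.74 in Tlr3-/-, a difference of 0.77.

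The limit on brightness left out miRNAs that changed on some arrays. Another 23 probes passed it on at least 1 array but not on all 4, and 10 of them had a difference at least 1.5-fold lower and 0 at least 1.5-fold higher, against 15.5% and 14.0% of the 573. Several passed it only where they were high, such as miR-1965 and miR-5130 on the irradiated Tlr3+/+ array, which favours low differences, so these counts support nothing. Just inside the limit were miR-19a (0.13), miR-497 (0.23), miR-3077* (-1.10), miR-25 (0.04) and miR-3090* (-0.70), by their differences. Just outside were miR-375 (0.43), miR-3084 (0.25), miR-146a (-0.04), miR-142-5p (-0.73) and miR-199b* (-0.09).

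Markers of other cells moved on these arrays. The summed raw intensity of red cell miRNAs was 99.6 (Tlr3+/+) and 231 (Tlr3-/-) at 0 hr and 189 and 151 at 6 hr, nearly all of the change being miR-451, and 0 of the 3 were among the 100. The 7 leukocyte miRNAs summed to 478 and 577 at 0 hr and 416 and 476 at 6 hr in the same order. All these raw sums include the blanks and are not scaled. With the blank mean subtracted, the leukocyte sums were 306 and 403 at 0 hr and 244 and 285 at 6 hr. Epithelial miRNAs summed to 17284 and 18357 at 0 hr and 16780.5 and 20020.0 at 6 hr and were the brightest of the marker lists, as the labelled tissue would have them. Of 4 pancreas and liver miRNAs, 0 were detected on all arrays. The striated muscle and neuron lists summed to no more than 116 and 93.3 raw, or 34.2 and 13.8 with the blank mean subtracted. The part of blood and leukocyte content in the differences was not tested. In pooled tissue, fewer cells of a type and less RNA per cell cannot be told apart.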

How the data were processed

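Small intestine RNA was labelled with Hy5 and hybridised to 1-colour miRNA arrays, per the labels' protocols. The deposited values are raw intensities, with background-subtracted and globally normalised intensities that, per the file headers and values, the authors made by subtracting the blank mean and scaling each array to a median of 25. The scanner is not given in the sources used here. From the raw intensity, the mean of the blank spots (5% trimmed at each end) was subtracted here and log2 values were centred on the median of the 100 miRNAs above 3 times the threshold. Plain subtraction gave no value at or below 0 for them. Quantile normalisation with a normexp offset of 50, which ties bright probes of equal rank, was kept as an alternative (limma 3.58.1, R 4.3.3). Other alternatives were other scalings, brightness filters, size limits and the authors' values. Thresholds were 25.8 to 29.2, and 711 to 779 mouse probes were detected per array. With 1 array per group no test was run, and the number of arrays limits precision. The rule for named miRNAs took the 10 highest and 10 lowest differences, the shared, damped, crossing and genotype-only classes, the 5 brightest, 5 on each side of the brightness limit, and the lists; miR-10a and the partial miRNAs were added after their values were seen. The members and lists were chosen with earlier results of these data known. The procedure was run on simulated data with planted differences, independent spot noise and array-wide shifts. The simulation held no spread of animals or pools, so it cannot show how reliable these single-array differences are.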

Additional observations from a re-analysis of the deposited data

Results flagged for a closer look

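At the scaling used, the ratios of the 2 genotypes had opposite signs after irradiation, below 0 in Tlr3+/+ and above 0 in Tlr3-/-, for miR-5112 (difference 0.92), miR-21 (0.80), miR-203 (0.75), miR-130a (0.70) and miR-125a-3p (0.66). Under other scalings the Tlr3-/- ratio reached -0.24 for miR-21 and -0.07 for miR-203, so the opposite sign is not settled for these. Opposite signs, in either direction, were found in 28 of the 100 miRNAs and 194 of the 573, so they are not particular to these 5. With 1 array per group, the difference was not tested.

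Probes for viral miRNAs were outside the comparison. The mouse cytomegalovirus probe mcmv-miR-M23-1-5p had a raw intensity of up to 250.4 and passed the brightness limit on all 4 arrays, including both non-treated ones. The probe mcmv-miR-M23-2 reached 83.1 and passed it on 1 array. Whether these signals come from a viral RNA or from other RNA on the probes was not tested.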

How the results depend on the processing

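Of 243 differences of 27 miRNAs recomputed under 9 corrections and scalings, 202 moved by less than the spot error of 0.21 and 41 moved by more. The difference of miR-5128, -0.02 as reported, kept its sign in 5 of 9 and reached 0.21. The other miRNAs kept their sign in 9 of 9. The counts as reported were 5 higher, 11 lower, 5 shared, 10 damped, 5 in Tlr3+/+ alone and 0 in Tlr3-/- alone. Raw intensity without subtraction gave 3 higher. Normexp with offset 50 and quantile normalisation gave 7 lower, 5 damped and 3 in Tlr3+/+ alone, and normexp with offset 16 gave 3 in Tlr3+/+ alone. Scaling to the 75th percentile gave 15 higher, 8 shared and 8 in Tlr3+/+ alone. Scaling to all detected miRNAs gave 9 higher and 1 in Tlr3-/- alone. Quantile normalisation gave 8 and 1, and the authors' values also 8 and 1. Scaling to the spike controls gave 12 higher, 2 in Tlr3+/+ alone and 3 in Tlr3-/- alone. A filter at 2 times the threshold gave 10 in Tlr3+/+ alone and 1 in Tlr3-/- alone, and one at 5 times gave 2 higher, 7 lower, 3 shared and 6 damped. A limit of 1.3-fold gave 15 higher and 5 in Tlr3-/- alone, and one of 2-fold gave 0 higher, 5 lower, 5 damped and 0 in Tlr3+/+ alone, as a looser or stricter limit must. Elsewhere the cause was not tested. No paired analysis was possible because each group has 1 array, and no array could be left out. Signal near the blanks limits what dim probes show.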
